A study of Homo sapiens with 3 samples.

Results

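The 10 genes described here encode chaperones, folding enzymes and stress-response proteins of the endoplasmic reticulum (ER), the compartment in which secreted and membrane proteins fold. They are HSPA5, HSP90B1, CALR, DNAJB9, SDF2L1, PDIA4, XBP1, HERPUD1, MANF and STC2, and they were taken by gene name from a footprint count table of 63241 genes. All 10 passed the filter on low counts that left 19820 genes for testing. Their footprints were measured by ribosome profiling (Ribo-seq), which sequences the mRNA fragments shielded by ribosomes and so counts ribosomes on each gene's mRNA. The cells were HEK293T, a line from human embryonic kidney in which p53 is bound by a viral protein, SV40 large T antigen. Lines expressed wild-type p53 (WT), G245S p53 or R273H p53; p53 is a tumor suppressor that binds DNA, and both mutants are hotspot substitutions in the part that does so.

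Per the study's methods, each line was made by lentiviral delivery and puromycin selection, and whether a line was clonal is not stated. The labels contradict this in part: they also speak of transient expression, and the mutants' treatment names the wild-type construct. Sample titles were therefore used to assign groups. Every dish received cycloheximide for 2 min, and no group without a p53 construct was analysed here. Each group was 1 sample in the labels and 3 dishes in the table (n = 3 dishes per group, 9 in all). The dishes of a group were pooled at reverse transcription, so line, pool and p53 form cannot be told apart in any comparison, and p-values measure only the spread between dishes of a pool.

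When unfolded proteins build up in the ER, the sensors IRE1 (gene ERN1), PERK (gene EIF2AK3) and ATF6 start the unfolded protein response (UPR). IRE1 splices XBP1 mRNA into the form that encodes an active transcription factor, ATF6 is cut to release one, and PERK phosphorylates eIF2alpha, which slows initiation on most mRNAs and favors ATF4. These factors are known to raise the chaperones, the ER-associated degradation (ERAD) machinery that removes misfolded proteins, and secreted factors, and HSPA5 is the usual readout of the response.

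Promoter sequence is shown to set the known UPR elements beside the footprint values. The genes were chosen as UPR targets, and such elements were first described in promoters like those of HSPA5, HSP90B1 and CALR, so their presence here is not independent of the choice. RefSeq windows (GRCh38.p14) of 250 bases before to 50 bases after the transcription start were matched for all 10 genes, XBP1 and PDIA4 having 2 windows each, and both strands were searched. The ER stress element (ERSE, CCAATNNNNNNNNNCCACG) was present in 4 of the 10 genes and in 0.0769% of 35116 promoter windows. The shorter ERSE-II (ATTGG, any base, then CCACG) was present in 2 of the 10 and in 0.0541% of all windows. The matches are printed 5′ to 3′ on the strand named, with the fixed letters of the element in capitals and flanking bases in lower case.
HSPA5 ERSE, chr9:125241386-125241414, minus strand: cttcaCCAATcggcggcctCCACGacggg
HSP90B1 ERSE, chr12:103930211-103930239, plus strand: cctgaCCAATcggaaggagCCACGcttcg
HSP90B1 ERSE, chr12:103930316-103930344, minus strand: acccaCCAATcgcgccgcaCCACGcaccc
CALR ERSE, chr19:12938379-12938407, minus strand: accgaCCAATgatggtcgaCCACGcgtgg
XBP1 ERSE, chr22:28800598-28800626, minus strand: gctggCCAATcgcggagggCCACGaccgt
SDF2L1 ERSE-II, chr22:21642109-21642129, minus strand: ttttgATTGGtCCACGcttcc
HERPUD1 ERSE-II, chr16:56932020-56932040, plus strand: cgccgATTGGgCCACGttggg

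HERPUD1 also held the C/EBP-ATF response element (CARE, TGATGNAA), the type of site that ATF4 binds, which was present in 3.62% of all windows.
HERPUD1 CARE, chr16:56931961-56931978, minus strand: cgggcTGATGcAAcccgc
The XBP1-type element (UPRE, TGACGTGG) was found in none of the 10 genes and in 0.729% of all windows. No element was found in DNAJB9, PDIA4, MANF or STC2, which says only that these letters are not in these windows. Of the 4 genes with an ERSE, XBP1 was called higher in both mutants while HSPA5, HSP90B1 and CALR were not called; of the 2 with ERSE-II, HERPUD1 was called and SDF2L1 was not. Over all tested genes with an ERSE window, 3 of 16 were called higher in each mutant, while 2 were lower in G245S and 3 in R273H. Over those with ERSE-II, 5 of 15 were called higher and 1 lower in each mutant. The shares over all genes tested were 12.6% higher and 12.1% lower for G245S, and 14.2% and 14.6% for R273H.

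The libraries held 18.7 to 24.6 M expected counts, and levels are given as CPM (a gene's counts divided by the library's total and scaled alike in every dish). The p53-activated genes CDKN1A and MDM2 were lower in both mutants, by -1.92 and -3.48 on the log2 scale in G245S and by -2.14 and -3.49 in R273H. The epithelial keratins KRT8 and KRT18 were at 32.6 to 44.8 and 107 to 122 CPM, EPCAM and CDH1 at 3.30 to 8.63 CPM, and the blood, endothelial and hepatocyte markers PTPRC, CD74, PECAM1, CDH5 and ALB at no more than 0.654 CPM. Of the fibroblast markers, COL1A1 was at 24.7 to 34.2 CPM and COL1A2 at no more than 0.0534 CPM. Footprint levels also moved with coding length in a way that differed by group: Spearman's rho between coding length and a dish's deviation from the mean of all dishes averaged -0.158 ± 0.0185 in WT, 0.050 ± 0.064 in G245S and 0.173 ± 0.0298 in R273H (SD, n = 3 dishes). The fits were therefore repeated with the trends in coding length and GC content removed.

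By footprint density, in CPM per kilobase (kb) of coding region, the 10 genes lay between place 298 and place 6321 of 13615 protein-coding genes. HSPA5 stood highest at 634 CPM per kb averaged over all 9 dishes, followed by CALR at 557 and HSP90B1 at 485. PDIA4 followed at 221 and MANF at 148 CPM per kb. XBP1 (86.4), SDF2L1 (85.3), STC2 (66.8) and HERPUD1 (42.4) formed a lower tier, and DNAJB9 was lowest at 18.3 CPM per kb. Together the 10 genes took 0.389% ± 0.00166 of all counts in WT, 0.387% ± 0.00328 in G245S and 0.391% ± 0.00483 in R273H (SD, n = 3 dishes), and the dishes of the groups overlapped. Most of that share came from HSPA5, HSP90B1 and CALR, so it says little about the other genes.

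**Figure D1:**
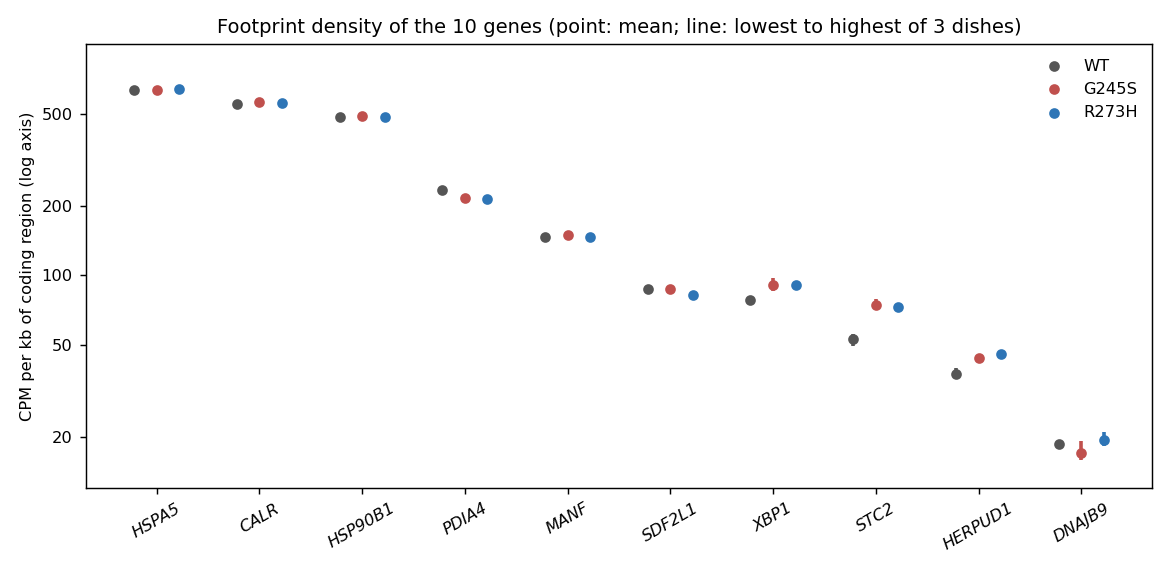
Footprint density (CPM per kb of coding region, log axis) of the 10 genes in WT, G245S and R273H dishes, with the mean of 3 dishes as a point and the lowest to highest dish as a line. HSPA5 is highest near 634 and DNAJB9 lowest near 18.3, and SDF2L1 and XBP1 change places between WT and R273H.

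The order was the same in the 3 groups except for one neighboring pair. In WT, SDF2L1 had a density of 87.0 ± 1.81 CPM per kb and XBP1 78.2 ± 1.07, with no overlap of dishes (SD, n = 3 dishes). In R273H the order was turned, with XBP1 at 90.3 ± 0.236 and SDF2L1 at 82.2 ± 1.74 CPM per kb. In G245S the dishes of XBP1 (90.8 ± 6.17) and SDF2L1 (86.8 ± 1.78) overlapped, so these neighbors did not differ beyond their spread. Densities rest on the assumption that footprints fall in the coding region, since the deposited counts do not say whether they cover whole transcripts.

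Against WT, 3 of the 10 genes rose and 1 fell in each mutant, and HSPA5, HSP90B1 and CALR, the major lumenal chaperones, were not called. In G245S, 4 of 10 genes were called at an adjusted p under 0.05, against 24.7% of all 19820 genes tested; the 3 higher compare with 12.6% of all genes called higher and the 1 lower with 12.1% called lower. In R273H, 4 of 10 were called, against 28.8% of all genes, with 3 higher (background 14.2%) and 1 lower (background 14.6%). Well-covered genes were called more often: of the 9528 genes with a mean count at least that of DNAJB9, the least abundant of the 10, 37.8% were called in G245S and 42.4% in R273H, so 4 of 10 is near the background for genes of this depth. Both comparisons use the same WT dishes, so they are not independent. The median log2 fold change of the 10 genes was 0.019 in G245S and 0.014 in R273H, beside -0.00069 and -0.0024 for all genes tested.

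**Figure D2:**
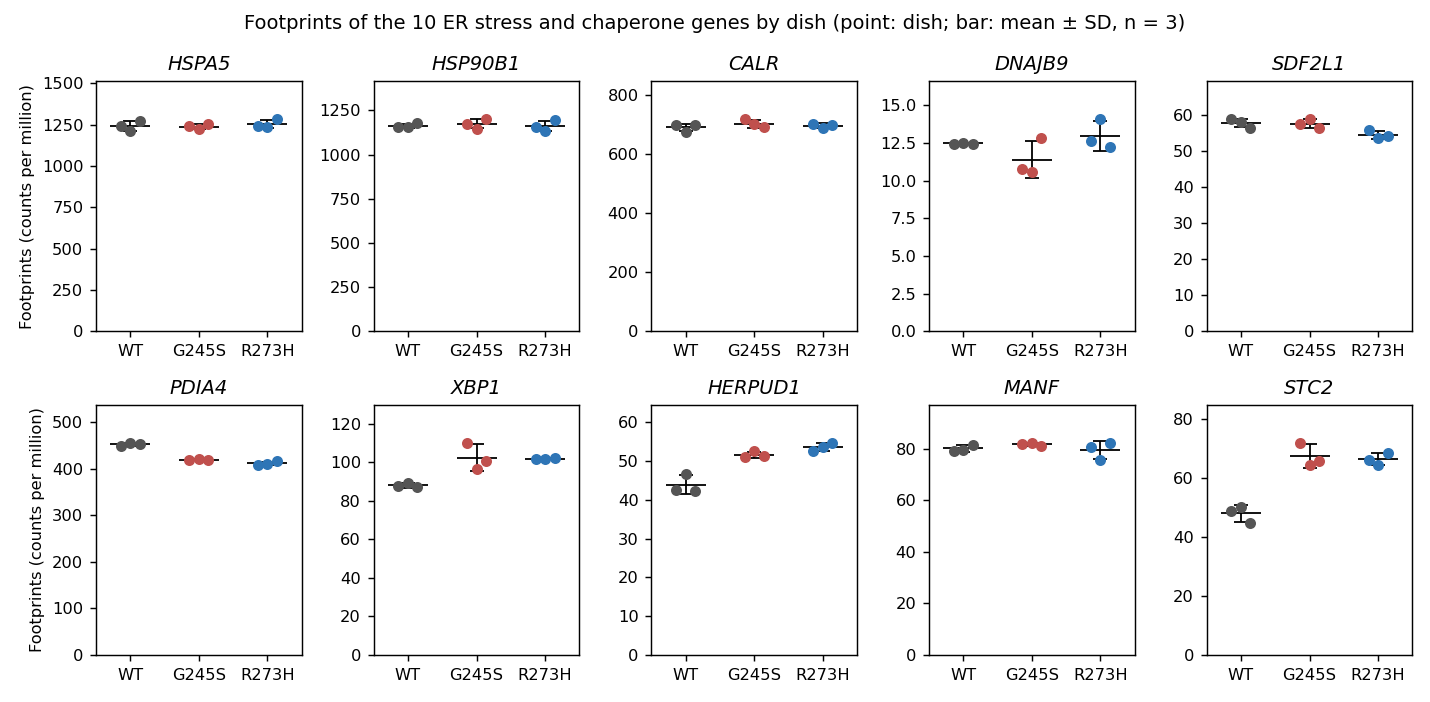
Footprints (CPM, axes from 0) of each of the 10 genes in every dish of WT, G245S and R273H, with points for dishes and bars for the mean ± SD of 3 dishes. STC2, HERPUD1 and XBP1 lie higher and PDIA4 lower in the dishes of both mutants, while HSPA5, HSP90B1 and CALR lie at one level.

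HSPA5 (BiP, GRP78; ENSG00000044574, chr9:125234853-125241382, minus strand), the Hsp70 chaperone of the ER that also holds the sensors inactive, was at 1241, 1213 and 1269.7 CPM in the WT dishes. It was at 1239.6, 1223 and 1252 CPM in G245S and at 1245, 1238 and 1283 CPM in R273H. The dishes of the 3 groups overlapped. The difference from WT was -0.25% in G245S (95% interval -3.40% to 3.00%) and 1.13% in R273H (-2.06% to 4.41%), neither called. Within a group the dishes varied by 1.19% to 2.28% of their mean. HSPA5P1, a pseudogene listed separately, held at most 0.907% of the HSPA5 count of a dish.

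HSP90B1 (GRP94; ENSG00000166598, chr12:103930107-103953931, plus strand), the ER member of the Hsp90 family, was at 1159, 1157 and 1177 CPM in WT, at 1176, 1148 and 1201 CPM in G245S, and at 1158, 1136 and 1195 CPM in R273H. The dishes overlapped, and the differences of 0.89% in G245S (95% interval -2.37% to 4.27%) and -0.13% in R273H (-3.35% to 3.20%) were not called. Once these trends in coding length and GC content were taken out, HSP90B1 in R273H had a log2 fold change of -0.0422 (edgeR adjusted p 0.102), and the same value was called when a replicate block was added (edgeR adjusted p 0.0391). CALR (calreticulin; ENSG00000179218, chr19:12938578-12944489, plus strand), the calcium-binding lectin chaperone of glycoproteins, was at 698, 677 and 699 CPM in WT, at 719, 701 and 691 CPM in G245S, and at 702, 689 and 700.5 CPM in R273H. Its dishes also overlapped, with differences of 1.76% (-1.53% to 5.16%) and 0.85% (-2.39% to 4.20%). A change in these 3 chaperones of more than 5.16% in either mutant lies outside the intervals given. Those intervals are of the main fit and do not cover the fit with trends removed. In that fit CALR had log2 fold changes of 0.0384 in G245S (SE 0.0215) and 0.0372 in R273H (SE 0.0213), neither called. HSP90B1 overlaps 3 annotated genes and CALR 2, on either strand, and whether counting used strand is not given in the sources used here.

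Of the co-chaperones, SDF2L1 lay lower in R273H without passing the test, and the dishes of DNAJB9, the least abundant of the 10 genes, varied widely in the mutants. SDF2L1 (ENSG00000128228, chr22:21642302-21644299, plus strand), which works with HSPA5 and its J-domain partner DNAJB11, was at 58.8, 57.9 and 56.4 CPM in WT, at 57.6, 58.8 and 56.4 CPM in G245S, and at 55.8, 53.6 and 54.0 CPM in R273H. The R273H dishes all lay below the WT dishes. The difference was -5.60% (95% interval -10.9% to -0.0061%; edgeR p 0.0498, adjusted p 0.128), and it turned to a log2 fold change of 0.028 once the trends in coding length and GC content were removed. In G245S its difference was -0.25% (-5.93% to 5.78%).

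DNAJB9 (ERdj4; ENSG00000128590, chr7:108569867-108574850, plus strand), the J-domain partner that returns HSPA5 to IRE1, was at 12.4, 12.5 and 12.5 CPM in WT, at 10.8, 10.6 and 12.8 CPM in G245S, and at 12.6, 14.1 and 12.2 CPM in R273H. A single dish of each mutant stood above the others, and the groups overlapped. The differences from WT were -8.33% in G245S (95% interval -19.5% to 4.42%) and 4.10% in R273H (-8.02% to 17.8%), intervals several times wider than those of HSPA5.

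PDIA4 (ERp72; ENSG00000155660, chr7:149003062-149028662, minus strand), a protein disulfide isomerase that forms and rearranges disulfide bonds, was the one gene that fell. It was at 448, 456 and 453 CPM in WT, at 418, 421 and 419.6 CPM in G245S, and at 409, 411 and 416 CPM in R273H. Every mutant dish lay below every WT dish. The log2 fold change was -0.11 in G245S (SE 0.0229, edgeR adjusted p 0.000683) and -0.14 in R273H (SE 0.0227, adjusted p 3.80e-05), or -7.29% and -8.97%. The spread between dishes was 0.33% to 0.85% of the mean within a group.

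XBP1 (ENSG00000100219, chr22:28794555-28800597, minus strand), the transcription factor whose mRNA IRE1 splices, rose in both mutants. It was at 87.8, 89.6 and 87.3 CPM in WT, at 110.2, 96.7 and 101 CPM in G245S, and at 102, 102 and 102 CPM in R273H. The mutant dishes all lay above the WT dishes, and G245S varied most. The increase was 16.1% in G245S (95% interval 9.75% to 22.7%; edgeR adjusted p 0.000147) and 15.5% in R273H (9.35% to 22.02%; edgeR adjusted p 0.000144). Counts per gene do not separate the spliced from the unspliced form of XBP1 mRNA.

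HERPUD1 (ENSG00000051108, chr16:56932142-56944864, plus strand), an ER membrane protein that organizes the ERAD ubiquitin ligase complex, rose as well. It was at 42.7, 46.7 and 42.4 CPM in WT, at 51.2, 52.5 and 51.3 CPM in G245S, and at 52.5, 53.7 and 54.7 CPM in R273H. The highest WT dish lay below the lowest mutant dish. The increase was 17.6% in G245S (95% interval 10.1% to 25.7%; edgeR adjusted p 0.000379) and 22.2% in R273H (14.6% to 30.3%; edgeR adjusted p 1.49e-05). HERPUD1 overlaps 2 annotated genes on its own strand, whose reads may not be separable from those of HERPUD1.

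The secreted members differed from each other. MANF (ENSG00000145050, chr3:51385291-51389397, plus strand), a small factor kept in the ER by its tail and released in stress, was at 79.1, 79.8 and 81.7 CPM in WT, at 82.1, 82.2 and 81.3 CPM in G245S, and at 80.7, 75.7 and 82.4 CPM in R273H. Its groups overlapped, and the differences of 2.06% in G245S (95% interval -3.31% to 7.72%) and -0.80% in R273H (-5.91% to 4.59%) were not called. With the trends in coding length and GC content removed, MANF was called higher in G245S at a log2 fold change of 0.0885 (edgeR adjusted p 0.0366), and in R273H its sign turned.

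STC2 (stanniocalcin 2; ENSG00000113739, chr5:173314723-173328447, minus strand), a secreted glycoprotein whose gene is known to be induced by ER stress and by ATF4, changed most of the 10. It was at 48.8, 50.2 and 44.8 CPM in WT, at 71.8, 64.3 and 65.8 CPM in G245S, and at 66.2, 64.3 and 68.3 CPM in R273H. The lowest mutant dish lay well above the highest WT dish. The log2 fold change was 0.49 in G245S (SE 0.0487, edgeR adjusted p 1.17e-08) and 0.47 in R273H (SE 0.0476, edgeR adjusted p 1.63e-08), increases of 40.2% (95% interval 30.8% to 50.3%) and 38.2% (29.1% to 47.9%). Ranked by signed log2 fold change, from the most lowered to the most raised, it stood above 94.9% of all genes tested in G245S and 93.6% in R273H. In the same ranking HERPUD1 stood above 85.0% and 87.2% of genes, and XBP1 above 83.3% and 81.5%.

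**Figure D3:**
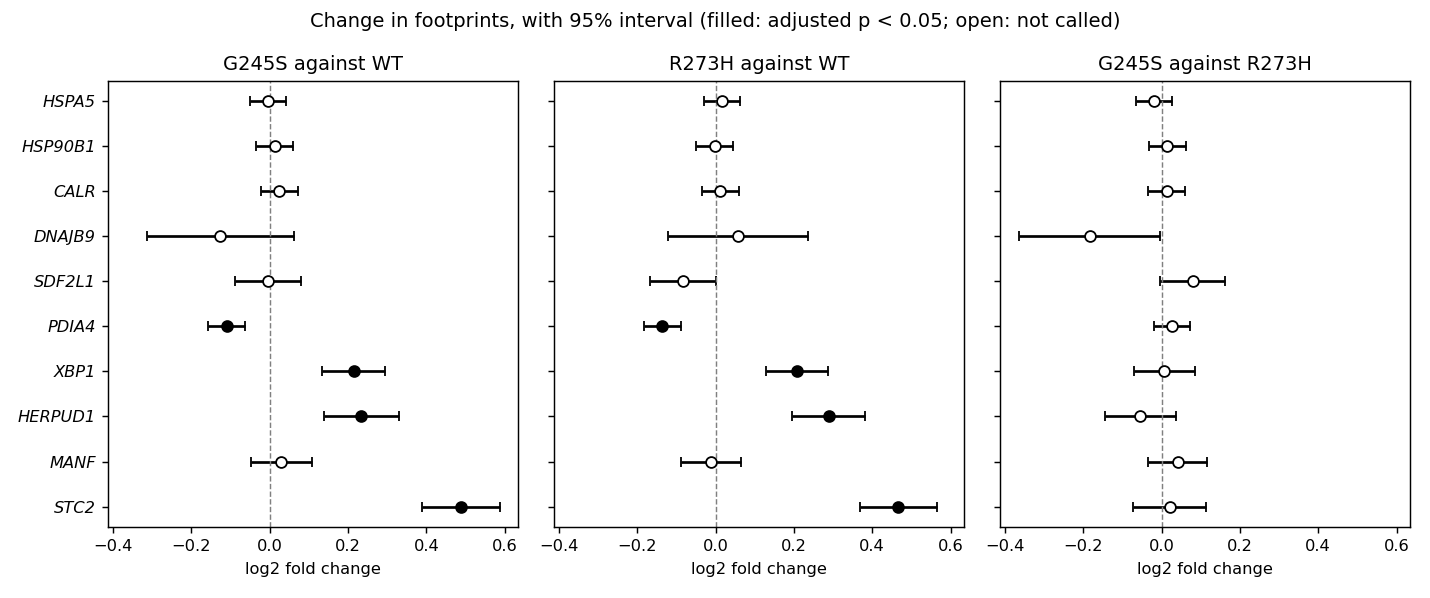
Log2 fold change of each of the 10 genes, with a panel for each mutant against WT and a panel for G245S against R273H, with bars for the 95% interval and filled points for an adjusted p under 0.05. STC2 (0.49 and 0.47), HERPUD1, XBP1 and PDIA4 are filled in the comparisons with WT, and no point is filled between the mutants.

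Of the 10 genes, 4 had G245S dishes that did not overlap the WT dishes, against 37.4% of all genes, and 5 had R273H dishes that did not, against 41.2%. With the trends in coding length and GC content removed, STC2 was at log2 fold changes of 0.51 and 0.54 in G245S and R273H, HERPUD1 at 0.25 and 0.31, XBP1 at 0.23 and 0.25, and PDIA4 at -0.11 and -0.13, all still called. Leaving out any one dish ended none of these calls. Tested against a fold change of at least 1.2 in place of any change, STC2 alone passed in each mutant, 1 of 10 genes. Of all 19820 genes tested, 547 passed in G245S and 693 in R273H. Footprint counts do not separate the amount of an mRNA from the ribosomes on each copy, nor fewer expressing cells from a lower level per cell.

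Between the mutants no difference in the 10 genes was called. In G245S against R273H, 0 of 10 genes passed at an adjusted p under 0.05 by edgeR and 0 by DESeq2, against 2.59% of all genes called by edgeR (1.86% higher, 0.732% lower). At an unadjusted p under 0.05 in edgeR stood 1 of 10 genes (DNAJB9) and 3120 of all 19820. For DNAJB9 the difference of G245S from R273H was -11.9% (95% interval -22.3% to -0.21%; edgeR p 0.0465, adjusted p 0.307), with overlapping dishes. For STC2 the difference was 1.46% (95% interval -4.85% to 8.19%), for XBP1 0.48% (-4.77% to 6.01%), for HERPUD1 -3.69% (-9.52% to 2.51%) and for PDIA4 1.85% (-1.40% to 5.20%). The dishes of HERPUD1, PDIA4 and SDF2L1, 3 of the 10, did not overlap between the mutants, against 21.5% of all genes.

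A list of 103 other genes of the UPR and the ER folding, degradation and transport machinery was also mixed in direction. All 103 were tested. In G245S, 25 were higher and 15 lower by the test, with a median log2 fold change of 0.021, and in R273H 27 higher and 21 lower with a median of 0.014. The called shares, 38.8% and 46.6%, compare with 24.7% and 28.8% of all genes and with 37.8% and 42.4% of the well-covered genes described above. With the trends in coding length and GC content removed, 19 were lower in each mutant, while 40 were higher in G245S and 37 in R273H. That fit was limited to 13615 protein-coding genes. The share of them called is not given here, so these counts have no background beside them. Of the 6 genes listed as sensors, ERN1 (IRE1) was higher by 0.47 (G245S) and 0.30 (R273H) on the log2 scale. ATF6B, an ATF6 relative, was lower by -0.19 in each mutant. The R273H call of ERN1 did not hold without WT dish 1 or 2 or R273H dish 1 or 3 (log2 fold change 0.28 to 0.31) or with DESeq2. EIF2AK3 (PERK) was at -0.13 and 0.011, and ATF6 at -0.035 and 0.062, none of them called. The list also held MBTPS1 and MBTPS2, the proteases that cut ATF6 and not sensors themselves. Neither was called in either mutant.

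Of the 6 transcription factors, ATF4, the factor favored when PERK is active, was higher by 0.27 in G245S (SE 0.0311, edgeR adjusted p 1.55e-07) and 0.34 in R273H (SE 0.0304, edgeR adjusted p 1.07e-09). Its dishes were at 104, 106 and 103 CPM in WT, at 126, 127 and 124 CPM in G245S, and at 133, 131 and 132 CPM in R273H, without overlap. Neither call of ATF4 held when tested against a fold change of at least 1.2. Counts per gene do not separate footprints on the coding region of ATF4 from those elsewhere on its mRNA. DDIT3 (CHOP), the factor that ATF4 induces in prolonged stress, held 37.2 to 64.9 counts a dish and was not called, at -0.20 (95% interval -0.58 to 0.17) and 0.15 (-0.20 to 0.51). ATF3 was lower by -0.32 in G245S and at -0.14, not called, in R273H, where it was called without WT dish 1 (-0.21). CREB3, an ER-anchored factor, was lower by -0.19 and -0.29, and its G245S call did not hold without WT dish 1 or 2 or G245S dish 3 (-0.13 to -0.20), nor with DESeq2 or no filter on low counts.

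Among the 8 targets of ATF4 and CHOP, G245S had 5 called higher and 1 lower, and R273H had 4 higher and 2 lower, with medians of 0.32 and 0.30. These are 75% in each mutant, beside 24.7% and 28.8% of all genes and 37.8% and 42.4% of well-covered genes. ASNS, asparagine synthetase, was higher by 0.52 and 0.47, and the lipoprotein receptor VLDLR by 0.39 and 0.44, the first of these not called without WT dish 2 or 3 (0.33 in each case) or with DESeq2. SESN2, a sestrin that is also a known p53 target, was lower by -0.71 and -0.76. NUPR1 and CHAC1 had larger increases (1.08 and 0.89 in G245S, 1.07 and 0.84 in R273H) at mean counts of 23.2 and 61.7. The remaining targets were mixed. DDIT4 was at 0.071, not called, in G245S and lower by -0.16 in R273H. TRIB3 was higher by 0.24 in G245S and at 0.17, not called, in R273H. PPP1R15A was at -0.18 and 0.063, called in neither. From NUPR1 on, these targets are named after their values were seen.

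**Figure D4:**
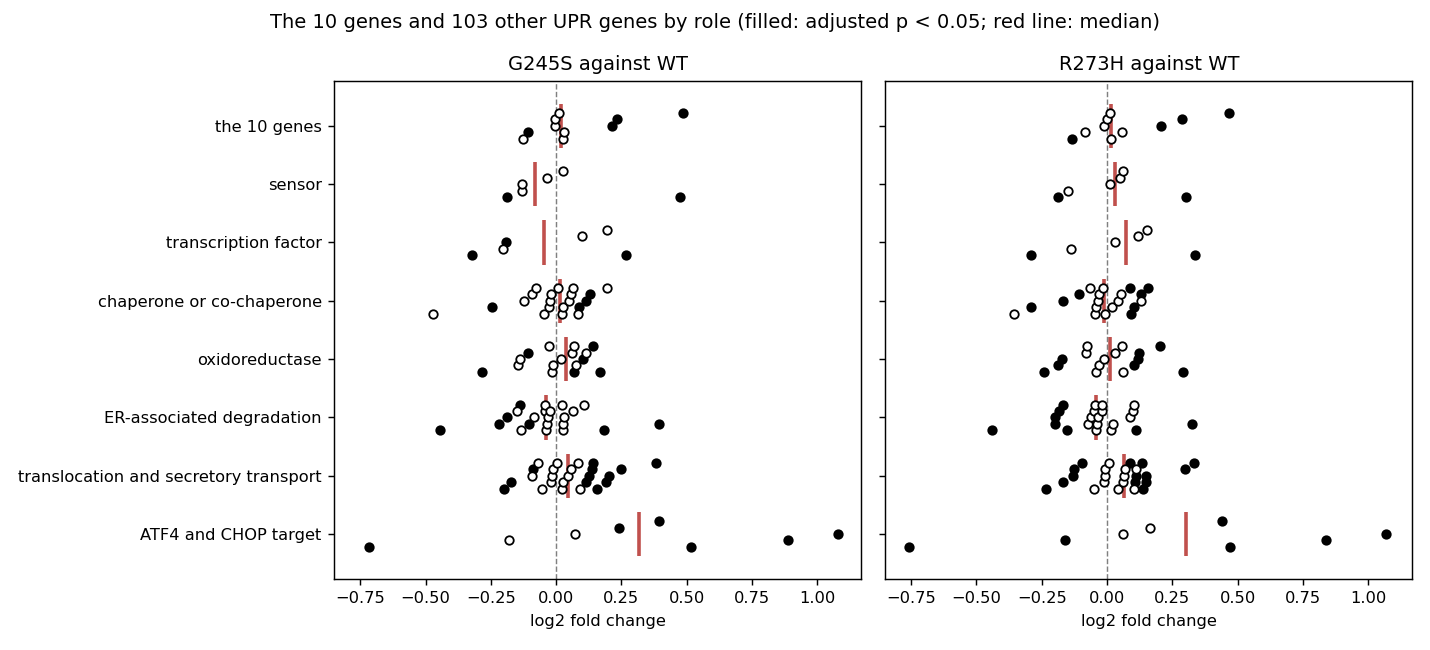
Log2 fold changes in G245S and R273H against WT of the 10 genes and of 103 other UPR genes by role, with filled points for an adjusted p under 0.05 and a red line at the median of each role. Most roles center near 0 with points on both sides, and the 8 targets of ATF4 and CHOP have medians of 0.32 and 0.30.

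Of 20 other chaperones and co-chaperones, G245S had 3 called higher and 1 lower, and R273H had 5 higher and 3 lower. These are 20% and 40% of them, beside 24.7% and 28.8% of all genes and 37.8% and 42.4% of well-covered genes. SIL1, which exchanges nucleotide on HSPA5, was lower by -0.24 and -0.29, the first not called without WT dish 2 (-0.19) or G245S dish 3 (-0.18). DNAJC10, a J-domain disulfide reductase, was higher by 0.11 and 0.16, and the G245S call was lost without any single dish of WT dish 1, WT dish 3 or G245S dish 1, 2 or 3 (0.10 to 0.12), and with DESeq2 or no filter on low counts. The prolyl isomerase FKBP2 was at -0.020 in G245S and lower by -0.17 in R273H, and the latter was not called without R273H dish 1 (-0.14), with DESeq2, or with the trends removed (-0.049).

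Of 16 other oxidoreductases, G245S had 4 called higher and 2 lower, and R273H had 5 higher and 3 lower. The called shares, 37.5% and 50%, compare with 24.7% and 28.8% of all genes and 37.8% and 42.4% of well-covered genes. ERP44, which retains client proteins through disulfides, was higher by 0.14 and 0.29. ERO1B, an oxidase that recharges disulfide isomerases, was lower by -0.28 and -0.19. Its G245S call did not hold without WT dish 3 (-0.22), and its R273H call did not hold without any of WT dish 2 or 3, G245S dish 1 or 2, or R273H dish 1, 2 or 3 (-0.12 to -0.20), nor with RLE or upper-quartile normalization, DESeq2, no filter on low counts or only the 6 dishes compared (-0.17 to -0.19). TMX4, a membrane thioredoxin-like protein, was at -0.14, not called, in G245S and lower by -0.24 in R273H, a call lost without WT dish 3 (-0.21) or R273H dish 1 (-0.18) and with DESeq2.

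Of 22 ERAD genes, 2 were called higher in each mutant, with 5 lower in G245S and 6 in R273H. AUP1, which recruits a ubiquitin-conjugating enzyme, was higher by 0.39 and 0.32, while DERL3, a derlin of the retrotranslocation machinery, was lower by -0.45 and -0.44 and the ubiquitin-conjugating enzyme UBE2J1 by -0.22 and -0.20. The called shares of these 22 were 31.8% (G245S) and 36.4% (R273H). Both lay above the shares over all genes, 24.7% and 28.8%, and below those of well-covered genes, 37.8% and 42.4%. With so few calls, no contrast between HERPUD1 and the other ERAD genes is drawn. Of 25 translocation and transport genes, 9 were called higher in each mutant, with 3 lower in G245S and 5 in R273H. The called shares here were 48% and 56%, against the same background. SEC63, the J-domain subunit that joins HSPA5 to the translocon, was higher by 0.38 and 0.33, and SSR3 of the translocon-associated complex by 0.25 and 0.30, whereas the channel subunit SEC61A1 was lower by -0.20 and -0.23. Between the mutants 3 of the 103 passed the test, with G245S above R273H in 2 (DDIT4 and SSR4) and below it in 1 (ERP44).

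For comparison, 21 cytosolic heat shock genes, which answer to unfolded protein outside the ER, had 9 members called higher in G245S and 6 in R273H, with 5 lower in each, and medians of 0.020 and 0.016. Called in either direction were 66.7% in G245S and 52.4% in R273H, beside 24.7% and 28.8% of all genes and 37.8% and 42.4% of well-covered genes.

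Across the 9 dishes, the 5 genes whose log level followed that of HSPA5 most closely, out of 12656 genes whose mean count reached 100, were GAR1 (Pearson r 0.94), POMP (0.93), SPCS2P4 (0.92), RBM28 (0.91) and ZNF420 (0.90). SPCS2P4 is a processed pseudogene of an ER signal peptidase subunit, and reads may be shared with its parent. The 9 dishes share depth and library effects, and HSPA5 varied little, so these values describe small deviations. Of the other 9 ER genes, HSP90B1 was closest to HSPA5 (r 0.67), MANF and CALR followed (0.33 and 0.32), and SDF2L1 was most opposed (-0.58). STC2, HERPUD1 and XBP1, the genes that rose, had r of 0.065, 0.035 and 0.11 with HSPA5.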

How the data were processed

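Ribo-seq footprints of WT, G245S and R273H p53 cells were measured in 3 dishes per group. Per the study's methods, the authors trimmed reads (Trim Galore, Cutadapt), filtered rRNA (SortMeRNA) and aligned to GRCh38 (STAR), and the submitters' processing notes also list FastQC, UMI-tools, SAMtools and MultiQC. The deposited table holds expected counts per gene without scaling; the counting tool, annotation release, strand and multi-mapping handling are not given in the sources used here. The nuclease was micrococcal (3 U/μg RNA, 30 min), an enzyme known to prefer some sequences at its cut sites.

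After rounding, differences in expected counts were tested in R 4.3.3 by edgeR 4.0.16 (TMM, filterByExpr, robust glmQLFit, glmQLFTest, two-sided) in one fit of 9 dishes with group as the only term (6 residual degrees of freedom), with Benjamini-Hochberg adjustment over 19820 genes and calls at an adjusted p under 0.05. The biological coefficient of variation was 2.58%. No spike-in or matched RNA-seq was used here, so a fold change is relative to the rest of the library. Intervals are 95% intervals of the fit. Coordinates, coding length and GC content come from GENCODE v44 (99.09% of 63241 genes matched).

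The 10 genes and all lists were chosen with earlier results of these data known. Beside the 10, the text names ERN1, EIF2AK3, ATF6, ATF4 and DDIT3, the 3 called genes of each role with the largest change and a mean count of at least 100, the 5 genes most like HSPA5, and CDKN1A and MDM2. NUPR1, CHAC1, DDIT4, TRIB3, PPP1R15A, SSR4, MBTPS1 and MBTPS2 are named outside this rule, after their values were seen. Alternatives were RLE and upper-quartile normalization, DESeq2 1.42.0, no filter, only the 6 dishes compared, a replicate block, trends in coding length and GC removed (loess) with and without the block, glmTreat against a fold of 1.2, and leaving out each dish. p53's own gene is not reported here.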

Additional observations from a re-analysis of the deposited data

Results flagged for a closer look

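A single result was flagged, a difference between the mutants in a gene named by the rule above. Outside that rule, DDIT4 (log2 fold change 0.23, edgeR adjusted p 0.00377) and SSR4 (0.11, edgeR adjusted p 0.0299) also passed between the mutants. Both were higher in G245S than in R273H. ERP44, an ER protein that retains client proteins through disulfides, was higher against WT in both mutants, and its log2 fold change in G245S against R273H was -0.15 (SE 0.0351, edgeR adjusted p 0.0193). Its dishes were at 151, 149 and 160.0 CPM in WT, at 168, 161 and 179 CPM in G245S, and at 182, 189 and 192 CPM in R273H, so every G245S dish lay below every R273H dish. The difference did not pass without G245S dish 1 (-0.14) or 2 (-0.12) or R273H dish 2 (-0.14) or 3 (-0.13), with edgeR adjusted p-values of 0.0935 to 0.176. Line and pool cannot be told apart from the p53 form.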

How the results depend on the processing

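Over 2154 recomputed single-gene values, 1976 kept direction and side of the threshold, 84 lost the call, 16 gained one and 78 changed sign. The 8 calls of STC2, HERPUD1, XBP1 and PDIA4 against WT kept direction in all 18 alternatives, and all but the test against a fold of 1.2 kept them called, which STC2 also passed.

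The 10 genes gave 4 calls against WT without any one dish, and between the mutants 0. Against a fold of 1.2, 1 of the 10 was called in each mutant. With the trends in coding length and GC removed and a replicate block, 1 was called between the mutants, HSP90B1 at 0.0608, and HSP90B1 was also called lower in R273H against WT at -0.0422. Among the 103 other genes the block with trends removed called 62 in G245S and 9 between the mutants. Between the mutants, trends removed alone called 6 and the block alone 9. The test against a fold of 1.2 called 5 in G245S, 3 in R273H and 0 between the mutants. For the fits with trends removed the share of all genes called is not given here. No shift of the list is read from their counts. Leaving out a dish gave 0 to 5 between the mutants (5 when WT dish 3 was omitted, 0 for G245S dish 2, 1 for G245S dish 1 and for R273H dish 2 or 3). Over all genes DESeq2 called 3079 in G245S and 3573 in R273H, a fold of 1.2 called 547, 693 and 3, and the replicate block called 1262 between the mutants, where leaving out a dish gave 162 to 712 (162 and 204 when G245S dish 1 or 2 was omitted; 222, 233 and 295 for R273H dish 1, 2 and 3). The cause was not tested.

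Same-numbered dishes of different groups had correlations of 0.042 to 0.229, over 0.1 in 4 of 9 pairs. Differently numbered dishes had correlations of -0.184 to 0.0583. In 17 of 18 comparisons a dish correlated best with its own number, so dishes of a number share a small effect. The main fit leaves this effect out, and the replicate block was run only as an alternative.

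Signs changed for values near 0, not called on either side except for POMP in G245S, called at 0.0502 with trends removed and the replicate block. Under upper-quartile normalization HSPA5 (G245S) became 0.00862, HSP90B1 (R273H) 0.014, SDF2L1 (G245S) 0.00876, MANF (R273H) 0.00415 and SPCS2P4 (G245S) 0.00304. HSP90B1 (R273H) became 0.00135 under RLE, 0.00216 under DESeq2, 0.00871 without a filter and 0.00113 with only the 6 dishes compared. Without a filter SDF2L1 (G245S) became 5.8e-05, XBP1 -2.3e-05 and MDM2 -0.00218 between the mutants. With trends removed, and then also with the replicate block, SDF2L1 became 0.0317 and 0.0312 (G245S) and 0.0279 and 0.028 (R273H), MANF 0.053 and 0.0533 (R273H), EIF2AK3 -0.014 and -0.0154 (R273H), FKBP2 0.0455 and 0.0453, GAR1 0.0299 and 0.0284 and POMP 0.0502 and 0.0502 (G245S). Between the mutants XBP1 became -0.0154 and -0.0159, STC2 -0.029 and -0.0293, DNAJC10 0.0124 and 0.0129, POMP 0.0244 and 0.0242, SESN2 -0.00286 and -0.00181, and UBE2J1 0.00583 and 0.00763. Leaving out a dish turned the sign of values that in G245S ranged from -0.0198 to 0.017 for HSPA5, -0.0172 to 0.0156 for SDF2L1, -0.0598 to 0.00954 for ATF6, -0.0479 to 0.0144 for FKBP2, -0.0448 to 0.0124 for GAR1, -0.0494 to 0.00236 for POMP, -0.0114 to 0.042 for RBM28, -0.0386 to 0.0467 for SPCS2P4 and -0.0405 to 0.216 for ZNF420. In R273H they ranged from -0.000455 to 0.0353 for HSPA5, -0.0202 to 0.015 for HSP90B1, -0.00302 to 0.0224 for CALR, -0.00587 to 0.10 for DNAJB9, -0.0349 to 0.0235 for MANF, -0.0935 to 0.0921 for EIF2AK3 and -0.0214 to 0.0385 for POMP. Between the mutants they ranged from -0.00168 to 0.0355 for HSP90B1, -0.00104 to 0.0281 for CALR, -0.045 to 0.0468 for XBP1, -0.0248 to 0.0525 for STC2, -0.0585 to 0.0371 for ATF6B, -0.033 to 0.0506 for DERL3, -0.0393 to 0.0377 for MDM2, -0.00356 to 0.114 for SIL1 and -0.11 to 0.0525 for ZNF420.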
